A study of Mus musculus with 77 samples.

Results

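The 6 genes described here encode a hormone, its receptor, the subunits of the inhibins and activins, and a protein that binds activins: Amh, Amhr2, Inha, Inhba, Inhbb and Fst. They were taken by name from the 19938 genes measured on 77 one-colour arrays of mouse testis, and each was read by 1 probe set. Values are intensities (array brightness after the submitters' RMA processing, on a linear scale), and differences are on the log2 scale, where 1 is a doubling. A gene was called different when its Benjamini-Hochberg adjusted p over all 19938 genes (limma, 1 model over the 77 arrays) was under 0.05 and the difference was at least 2-fold. Where arrays of compared groups are said not to overlap, this only describes the named gene. The share of all genes without overlap was not counted. Intensities of different genes come from different probes and, apart from a rank given for Inha, are not compared with each other.

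Anti-Müllerian hormone, the product of Amh, is secreted by Sertoli cells, the somatic cells that line the seminiferous tubules and carry the germ cells. In the male fetus it makes the Müllerian ducts regress, and its production falls as Sertoli cells mature. It signals through its own type II receptor, the product of Amhr2. Inhibins and activins share subunits: an alpha chain (Inha) joined to a beta chain (Inhba or Inhbb) forms an inhibin, which restrains follicle-stimulating hormone from the pituitary, and a pair of beta chains forms an activin, which signals through Smad proteins. Follistatin, the product of Fst, binds activins and keeps them from their receptors. In the fetal mouse testis Leydig cells are a known source of the beta A chain, and activin acts there on Sertoli cell division.

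The mice carried the RiboTag allele, which puts an epitope tag on ribosomes of cells that have expressed Cre, so that RNA on those ribosomes can be immunoprecipitated (IP). Amh-cre, driven by the promoter of the anti-Müllerian hormone gene, sets the tag in Sertoli cells of FVB/N mice. Stra8-cre sets it in germ cells of FVB/N mice, and Ngn3-cre in germ cells of C57BL/6 mice, so that line and strain cannot be told apart for Ngn3. Every animal, the controls at time 0 included, had received WIN,18446 (BDAD), an inhibitor of retinoic acid synthesis, for 9 days, and animals of later times were then injected with retinoic acid. The series title calls the cells neonatal, and the labels give no age in days.

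The groups were Amh IP (16 arrays at 8 labelled times) and Amh total RNA of the whole testis (14 arrays at 7 times, with 4h not analysed here), Stra8 IP (16 arrays) and Stra8 total (23 arrays) at 8 times, and Ngn3 IP and Ngn3 total (4 arrays each, at 0 and 4h). Times ran from 0 through 4h, 12h, 24h and 48h up to 4d, then 6d, with 8d as the last. Groups held 2 arrays, apart from Stra8 total 4h with 3 and Stra8 total 0, 24h and 48h with 4 each. Later times have no uninjected or vehicle arrays beside them, so retinoic acid, the injection, age and the end of BDAD cannot be told apart in any change from time 0. The labels do not say that arrays of a group came from separate animals, and p-values measure the spread between these arrays.

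The tags were set against 20 measured Sertoli cell genes and 15 germ cell genes, chosen with earlier results of these data known. Summed Sertoli intensity lay between 89130 and 100950 in Amh IP arrays, against 52033 to 62942 in Amh total arrays. It lay between 14112 and 41527 in Stra8 IP arrays, against 55317 to 67868 in Stra8 total arrays, and between 21343 and 22379 in Ngn3 IP arrays, against 62487 to 64449 in Ngn3 total arrays. Summed germ cell intensity was 4805 to 8669 in Amh IP, against 25993 to 36708 in Amh total. It was 46328 to 64135 in Stra8 IP, against 18557 to 33689 in Stra8 total, and 59928 to 69138 in Ngn3 IP, against 24769 to 26979 in Ngn3 total. Of the 20 Sertoli genes 3 were called higher in Amh IP than in Amh total, where 5.04% of all genes were called. Sums of both lists went with the labelled cell types, which is no independent check given how the lists were chosen. Stra8 IP arrays held Sertoli signal that differed between arrays.

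Some arrays went against their labelled times. Rarb and Cyp26a1, direct targets of retinoic acid receptors that were picked for this check after their values were seen, lay between 114 and 160 (Rarb) and between 53.0 and 93.3 (Cyp26a1) in the 14 arrays at time 0. At 4h Rarb stood at 525 to 623 in Stra8 IP and Ngn3 IP arrays and at 358 and 359 in Ngn3 total arrays. In the Amh line it was 143 and 145 in the IP arrays labelled 4h, but 378 and 382 in the IP arrays and 451 and 470 in the total arrays labelled 4d. Cyp26a1 at 4h was 623.3 to 1002.5 in Stra8 IP and Ngn3 IP arrays and 235 and 263 in Ngn3 total arrays. In Amh IP arrays labelled 4h Cyp26a1 was 100.9 and 110.3, above every array at time 0. At the label 4d it was 290.1 and 310.2 in Amh IP and 419.5 and 431.5 in Amh total. The highest Cyp26a1 in Amh IP, 976.6, was at neither of these labels. Of the 3 Stra8 total arrays labelled 4h, replicate 1 had a Rarb of 368 and replicates 2 and 3 had 126 and 127. The Amh arrays labelled 4h and 4d and these Stra8 total arrays are named by their labels below. Several tests of the 6 genes that rest on them are given with and without them. For the other tests only changes of call without these arrays are given, at the end. Values at the single times 4h and 4d, and the counts for gene lists in the courses, include them.

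**Figure D1:**
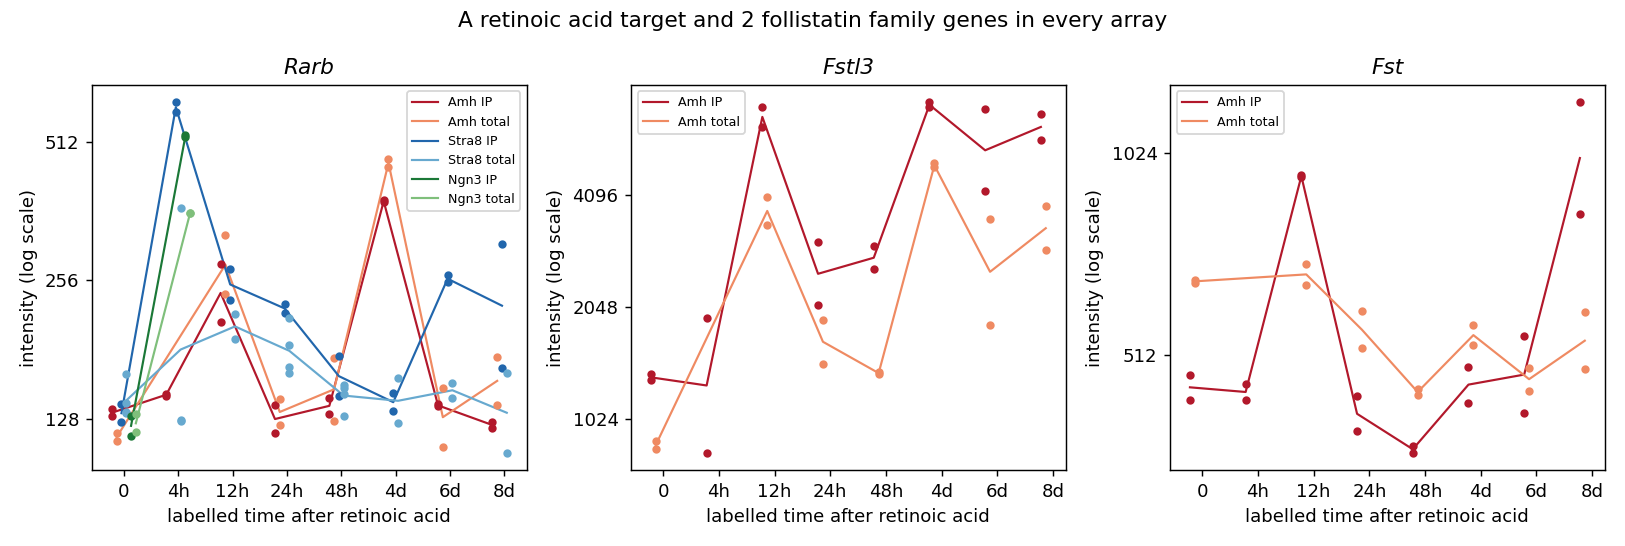
Intensity (log axis) of Rarb in all arrays and of Fstl3 and Fst in the Amh line, by labelled time after retinoic acid; points are arrays and lines join group means of the log2 values. Rarb was high at 4h in Stra8 IP and Ngn3 arrays but at the label 4d in the Amh line, and Fst in Amh IP was highest at 12h and 8d.

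In the Amh line Amhr2, Inha and Inhbb were higher in IP than in total RNA, Amhr2 and Inha by under 2-fold, and Inhba was lower. Promoter windows of 300 bases (250 before and 50 after a start) were found in the RefSeq table for only these 4 of the 6 genes, and all are shown. They lie on build GRCm38.p6 at chr15:102445117-102445416 (+ strand, Amhr2), chr1:75507359-75507658 (+ strand, Inha), chr13:16011601-16011900 (+ strand, Inhba) and chr1:119422199-119422498 (- strand, Inhbb). For Amhr2, Inha and Inhba the start used by that table lies inside the outer bounds of the annotated gene. Capitals mark AGGTCA, the half-site that steroidogenic factor 1 and retinoic acid receptors can bind.
Amhr2: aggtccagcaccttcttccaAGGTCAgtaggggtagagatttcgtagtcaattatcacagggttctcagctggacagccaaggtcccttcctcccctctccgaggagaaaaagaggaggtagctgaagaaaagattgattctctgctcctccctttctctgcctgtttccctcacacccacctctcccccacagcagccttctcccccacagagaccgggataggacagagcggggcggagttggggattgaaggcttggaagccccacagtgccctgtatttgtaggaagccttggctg
Inha: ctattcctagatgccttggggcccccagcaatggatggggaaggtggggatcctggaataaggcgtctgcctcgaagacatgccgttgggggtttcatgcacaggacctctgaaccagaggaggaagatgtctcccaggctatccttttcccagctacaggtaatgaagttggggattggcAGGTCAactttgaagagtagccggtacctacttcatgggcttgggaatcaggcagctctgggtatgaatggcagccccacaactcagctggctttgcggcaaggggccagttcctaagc
Inhba: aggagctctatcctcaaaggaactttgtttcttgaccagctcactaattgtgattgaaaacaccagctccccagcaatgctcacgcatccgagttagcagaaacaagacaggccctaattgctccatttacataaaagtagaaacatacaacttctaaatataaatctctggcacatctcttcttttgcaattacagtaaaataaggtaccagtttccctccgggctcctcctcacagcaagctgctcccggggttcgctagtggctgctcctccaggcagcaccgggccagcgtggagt
Inhbb: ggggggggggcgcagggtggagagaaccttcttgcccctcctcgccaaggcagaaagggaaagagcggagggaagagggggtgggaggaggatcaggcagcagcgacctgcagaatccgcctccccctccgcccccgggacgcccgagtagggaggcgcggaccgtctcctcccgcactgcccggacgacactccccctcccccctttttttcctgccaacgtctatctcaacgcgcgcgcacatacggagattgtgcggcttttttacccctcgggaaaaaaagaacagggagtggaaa

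AGGTCA, searched on both strands, occurred once in the Amhr2 window (first base at -230 from the start) and once in the Inha window (at -69), and in 16.3% of all 32851 windows. In Amhr2 it was part of the longer CAAGGTCA, which 1.56% of windows hold. A GATA match (AGATA or TGATA, each followed by A or by G) was found in the Amhr2 and Inhbb windows and in 29.8% of all windows. TATAAA was found in the Inhba window and in 13.6% of all. TGACGTCA, the cAMP response element held by 1.79% of windows, was in none of the 4. The Inhbb window had the highest GC share, at 64.3%, and the Inhba window the lowest, at 47.7%. These are matches of letters, and no binding was measured.

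The first comparison asked which of these RNAs the Sertoli cell tag recovers. Amh and Inhbb were called higher in Amh IP than in Amh total RNA and Inhba lower, 3 of 6 genes against a background of 5.04% of all genes called. Amh in Amh IP arrays was 7434 and 7583 at 0, 7250 and 7432 at the label 4h, 5710 and 5727 at 12h, 5892 and 5851 at 24h, 5845 and 5808 at 48h, 8477 and 7974 at the label 4d, 4365 and 4206 at 6d, and 3628 and 3115 at 8d. In Amh total arrays it was 4312 and 4136 at 0, 1941 and 2254 at 12h, 2582 and 2412 at 24h, 2140 and 2344 at 48h, 4199 and 3792 at the label 4d, 1280 and 1156 at 6d, and 921 and 824 at 8d. At each of the 7 times with both fractions the IP arrays lay above the total arrays. Over those times the difference was 1.39 ± 0.12 (SE), a 2.61-fold higher level (adjusted p = 4.14e-15, limma), and 1.44 without the arrays labelled 4d.

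Inhbb, the beta B chain, ranged from 2171 to 3504 in the 16 Amh IP arrays (median 2846) and from 948 to 1679 in the 14 Amh total arrays (median 1513). The fractions did not overlap, and the difference was 1.05 ± 0.07 (adjusted p = 7.94e-19, limma); under quantile normalization it was 0.87 and no longer reached 2-fold. Amhr2 did not overlap either, with 8019 to 11647 in Amh IP (median 9758) against 4261 to 7498 in Amh total (median 6072), but its difference of 0.68 ± 0.08 was under 2-fold (adjusted p = 2.02e-10, limma). Inha ranged from 9555 to 11746 in Amh IP (median 10628) and from 7040 to 9786 in Amh total (median 8896), a difference of 0.31 ± 0.07 (adjusted p = 0.000216, limma). Its mean intensity ranked above that of 99.6% of genes, a rank that also depends on the probes.

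Inhba, the beta A chain, ran the other way. It ranged from 264 to 554 in Amh IP arrays (median 335) and from 345 to 1537 in Amh total arrays (median 832), and the IP arrays were lower at each of the 7 times. The difference was -1.14 ± 0.10 (adjusted p = 2.57e-15, limma). Fst had no overall difference, at -0.01 with a 95% interval from -0.11 to 0.09 (adjusted p = 0.892, limma). That average hid opposite values over time, described below, and under median centring it was 0.13.

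The germ cell tags gave lower levels of the hormone, receptor and subunit genes. Amh, Amhr2, Inha, Inhba and Inhbb were called lower in IP than in total RNA in both germ cell lines, 5 of 6 genes, where 9.21% of all genes were called in the Stra8 line and 12.9% in the Ngn3 line. Amhr2 ranged from 801 to 4307 in Stra8 IP arrays (median 1167) against 4420 to 7619 in Stra8 total arrays (median 6235), a difference of -2.28 ± 0.07 (adjusted p = 4.95e-32, limma). Amh ranged from 183 to 1688 in Stra8 IP (median 454) against 616 to 5443 in Stra8 total (median 2703), a difference of -2.16 ± 0.10. Inha differed by -1.89 ± 0.06, Inhbb by -1.64 ± 0.06 and Inhba by -1.14 ± 0.08, close to its value in the Amh line.

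In Ngn3 IP, the arrays of time 0 held Amh intensities of 652 and 1009 and those of 4h 915 and 762, against 4348, 5358, 5122 and 4985 in the total arrays. The difference was -2.59 ± 0.22 (adjusted p = 9.93e-15, limma) and the fractions did not overlap. Amhr2 (-2.34 ± 0.15), Inhbb (-1.90 ± 0.13), Inha (-1.81 ± 0.14) and Inhba (-1.18 ± 0.18) were also lower. Inhba fell short of 2-fold, at -0.95, without Ngn3 IP time 0 replicate 1.

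Fst was the exception: it was higher in germ cell IP RNA. It ranged from 526 to 1445 in Stra8 IP (median 797) against 435 to 647 in Stra8 total (median 516), and from 808 to 1006 in Ngn3 IP against 491 to 594 in Ngn3 total, where the fractions did not overlap. The differences of 0.68 ± 0.04 (Stra8, adjusted p = 1.48e-19, limma) and 0.72 ± 0.09 (Ngn3, adjusted p = 2.51e-09, limma) were under 2-fold over all times. At time 0 the Stra8 difference was 1.05 ± 0.11, and at 8d it was 0.27 ± 0.13.

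**Figure D2:**
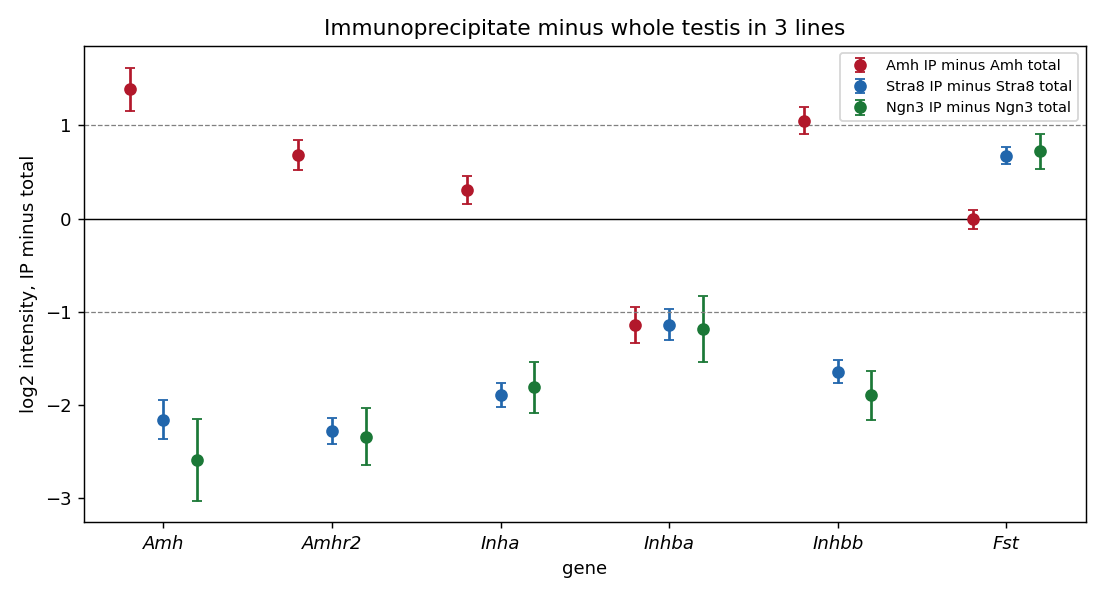
Difference in log2 intensity, IP minus total, for the 6 genes in the Amh, Stra8 and Ngn3 lines; bars are 95% intervals of the fit and dashed lines mark 2-fold. Amh, Amhr2, Inha and Inhbb lie above 0 in the Amh line and below it in both germ cell lines, Inhba lies below 0 in all 3, and Fst lies above 0 in the germ cell lines.

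Sertoli cell IP was also set against germ cell IP directly. Amh (3.55 ± 0.11), Amhr2 (2.84 ± 0.08), Inhbb (2.66 ± 0.07) and Inha (2.10 ± 0.07) were called higher in Amh IP than in Stra8 IP, 4 of 6 genes against 16.8% of all genes. Amh, the widest, was 11.7-fold higher (adjusted p = 3.13e-33, limma). Inhba was 264 to 554 in Amh IP and 166 to 742 in Stra8 IP, a difference of 0.24 ± 0.09 under 2-fold, so this chain was low in both tagged fractions and higher in whole testis. Fst was 0.62 ± 0.05 lower in Amh IP on the log2 scale. Without the arrays labelled 4h and 4d these differences were 3.70, 2.97, 2.75, 2.28, 0.33 and -0.50 for Amh, Amhr2, Inhbb, Inha, Inhba and Fst.

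The whole testes of the Amh and Stra8 lines, both FVB/N, served as a check on each other. None of the 6 genes was called different between Amh total and Stra8 total over the 7 shared times (limma; 0.0301% of all genes were called). At an unadjusted p under 0.05 (limma) the count was 2 of 6, where 6809 of all 19938 genes reached it. Inhba differed by 0.26 ± 0.09 (adjusted p = 0.0344, and 0.195 without the arrays labelled 4h and 4d) and Amhr2 by -0.16 ± 0.08 (adjusted p = 0.142). The interval for Amh ran from -0.18 to 0.27.

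Over time Amh fell in both fractions and both lines, and it was the only one of the 6 genes called in all 4 time courses. A course was tested by a moderated F test over all differences from time 0, and the value given is the largest of them. In Amh IP the course of 7.62% of all genes was called, among them Amh, with -1.16 ± 0.31 at 8d (adjusted p = 0.00497, limma), and Fst. In Amh total 7.66% were called, among them Amh, with -2.28 ± 0.31 at 8d (adjusted p = 3.21e-08), and Inhba. In Stra8 total 6.9% were called, again with Amh (-2.81 ± 0.27 at 8d, adjusted p = 2.13e-11) and Inhba. Without the arrays labelled 4h and 4d the adjusted p of Amh was 0.0313 in Amh IP and 1.18e-06 in Amh total. Without Stra8 total 4h replicates 2 and 3 it was 5.35e-12 in Stra8 total, and that of Inhba 1.31e-10.

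Amh in Stra8 total arrays was 4703, 4661, 5443 and 4513 at 0, 4662, 2703 and 3095 at 4h, 3361 and 3215 at 12h, 2011, 2089, 2190 and 2030 at 24h, 2850, 2853, 4660 and 2641 at 48h, 2179 and 1960 at 4d, 1238 and 1057 at 6d, and 616 and 766 at 8d. The 8d arrays lay below every earlier array of that fraction. At 4h replicate 1, the array with the high Rarb, had the highest Amh of its group, and replicates 2 and 3 had less. In the Amh line the arrays labelled 4d had about the Amh level of time 0 in both fractions and stood above 48h and 6d.

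The mean of 6d and 8d was also set against the mean of 0, 12h and 24h, which uses no array labelled 4h or 4d. Amh was lower late by 1.45 ± 0.20 in Amh total (adjusted p = 5.08e-08, limma), by 1.85 ± 0.19 in Stra8 total and by 1.54 ± 0.20 in Stra8 IP, and late and early arrays did not overlap in any of them. In Stra8 IP the other 5 genes were lower late too, each under 2-fold, with -0.38 for Amhr2, -0.77 for Inha, -0.71 for Inhba, -0.75 for Inhbb and -0.74 for Fst. In Amh IP the late arrays (3115 to 4365) also lay below all early arrays (5710 to 7583), but the difference of -0.74 ± 0.20 was under 2-fold (adjusted p = 0.00267). Counts of called genes were 0 of 6 in Amh IP (2.71% of all genes were called), 2 in Amh total (2.52%), 2 in Stra8 total (2.75%) and 1 in Stra8 IP (3.71%). At an adjusted p under 0.05 alone (limma) Amh IP had 3 of 6, where 7013 of all 19938 genes reached it. In whole testis, fewer cells of a type and less RNA per cell cannot be told apart. The mean log2 intensity of the 20 Sertoli genes was 10.79 at 8d against 11.10 at 0 in Amh total and 11.76 at 8d against 11.73 at 0 in Amh IP; their part in the fall of Amh was not tested.

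**Figure D3:**
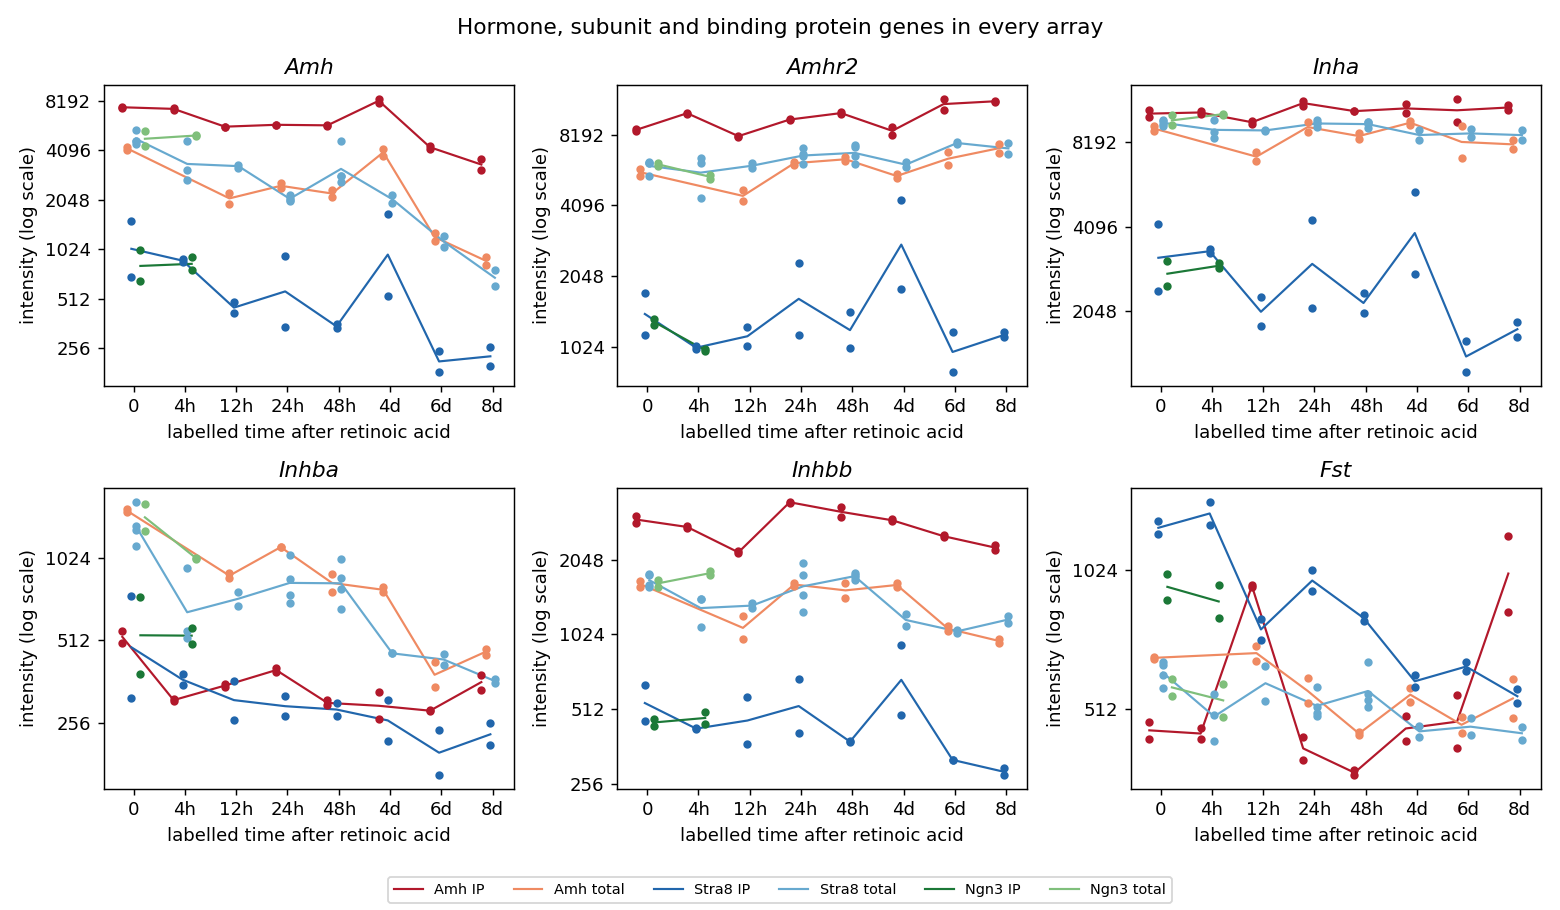
Intensity (log axis) of each of the 6 genes in all 77 arrays by labelled time after retinoic acid, coloured by line and fraction; points are arrays and lines join group means of the log2 values. Amh falls late in every fraction followed to 8d, Inhba falls in whole testis, Inha stays level in Amh IP and both totals, and Fst peaks at 12h and 8d in Amh IP.

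The receptor gene did not follow the hormone. Amhr2 in Amh IP was 8484 and 8648 at 0, 8109 and 8019 at 12h, 9500 and 9475 at 24h, 10016 and 10199 at 48h, 10463 and 11647 at 6d, and 11428 and 11264 at 8d, with 10040 and 10148 at the label 4h and 8858 and 8147 at the label 4d. Its course was not called (0.41 ± 0.22 at 8d, adjusted p = 0.288, limma), while late minus early was 0.37 ± 0.14 (adjusted p = 0.0348) with no overlap between late and early arrays. In whole testis late minus early was 0.34 ± 0.14 in the Amh line (adjusted p = 0.0521) and 0.24 ± 0.13 in the Stra8 line (adjusted p = 0.133). Over the 8 group means of Amh IP the correlation of Amhr2 with Amh was -0.721, against 0.806 over all 35 group means, where the contrast of fractions sets most of the spread (descriptions over groups that share arrays' processing, with no test).

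Inha varied least of the 6 over time in Amh IP and in both FVB/N whole testis sets, but not in Stra8 IP, where its highest time stood 2.76-fold above its lowest. In Amh IP its highest time stood 1.17-fold above its lowest, in Stra8 total 1.11-fold and in Amh total 1.32-fold, and no course in these 3 fractions was called (adjusted p = 1, 0.958 and 0.479, limma). Late minus early in Amh IP was 0.05 with a 95% interval from -0.20 to 0.30. Inhbb moved a little more: in Amh IP it was lowest at 12h (2171 and 2210) and highest at 24h (3463 and 3504), and late minus early was -0.48 ± 0.12 in Amh total (adjusted p = 0.000861) and -0.46 ± 0.11 in Stra8 total (adjusted p = 0.00053), both under 2-fold. In the Stra8 total course the largest difference was -0.68 for Inhbb and -0.44 for Fst, both under 2-fold.

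Inhba fell steeply in whole testis. In Amh total it was 1502 and 1537 at 0, 898 and 864 at 12h, 1119 and 1118 at 24h, 891 and 771 at 48h, 766 and 799 at the label 4d, 345 and 427 at 6d, and 477 and 455 at 8d. In Stra8 total it was 1330, 1127, 1639 and 1294 at 0, 459 and 459 at 4d, 417 and 456 at 6d, and 359 and 369 at 8d. The largest difference from 0 was -1.99 ± 0.25 in Amh total (6d, adjusted p = 2.2e-08, limma) and -1.88 ± 0.22 in Stra8 total (8d, adjusted p = 1.34e-09). Late minus early was -1.44 ± 0.16 and -1.22 ± 0.15, with no overlap in either line. Of 6 endothelial genes 1 (Kdr) was called lower in the Amh total course and 0 in the Stra8 total course, and their mean log2 intensity was 9.10 at 6d and 9.21 at 8d, against 9.89 at 0, in Amh total and 9.57 and 9.18, against 9.79, in Stra8 total. Of 7 measured Leydig genes the Amh total course called 3 lower (Cyp11a1, Cyp17a1 and Hsd17b3) and 1 higher (Hsd3b6), with a list median of -0.73 against 0.17 over all genes. The Stra8 total course called 1 lower (Hsd17b3) and 1 higher (Hsd3b6). The Leydig mean log2 intensity was 10.05 at 6d and 10.90 at 8d, against 10.64 at 0, in Amh total, and 11.03 and 10.65, against 10.75, in Stra8 total. Of 6 peritubular genes 0 were called in either course. Over all genes 7.66% were called in the Amh total course and 6.9% in the Stra8 total course. Summed Leydig intensity ranged from 6737 to 20316 over Amh total arrays and from 11344 to 20275 over Stra8 total arrays. The part of any of these cells in the fall of Inhba was not tested.

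Within Amh IP, Inhba was 502 and 554 at 0 and between 264 and 406 in the 14 later arrays. Its course had an adjusted p of 0.0339 (limma; 0.0407 without the arrays labelled 4h and 4d) and a largest difference of -0.89 ± 0.25 at 6d, under 2-fold. The change between early and late times was smaller in Amh IP than in Amh total: the difference of the differences was 1.05 ± 0.23 (adjusted p = 0.00061), 1 of 6 genes called where 1.34% of all were. Without Amh total 6d replicate 1 it was 0.97. IP minus total for Inhba was -1.53 ± 0.25 at 0, -1.33 at 12h, -1.49 at 24h, -1.45 at 48h, -1.40 at the label 4d, -0.43 at 6d and -0.37 at 8d. Array medians over all probe sets lay between 253 and 301, so the later Inhba values in Amh IP were near the array median. The part of this lower signal in the smaller change of Amh IP was not tested.

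For Amh the difference between early and late times also leaned towards IP, with IP minus total at 0.83 ± 0.31 at 0, 1.45 at 12h, 1.23 at 24h, 1.38 at 48h, 1.04 at the label 4d, 1.82 at 6d and 1.95 ± 0.31 at 8d. The test of that change gave 0.71 ± 0.28 (adjusted p = 0.0697, limma) and did not pass. Between the whole testes of the 2 FVB/N lines no change from early to late differed for any of the 6 genes (limma; 0 called, 0 at an adjusted p under 0.05, with adjusted p from 0.474 to 0.966; 0.0602% of all genes were called, 12 genes, or 7 to 26 with 1 array left out).

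**Figure D4:**
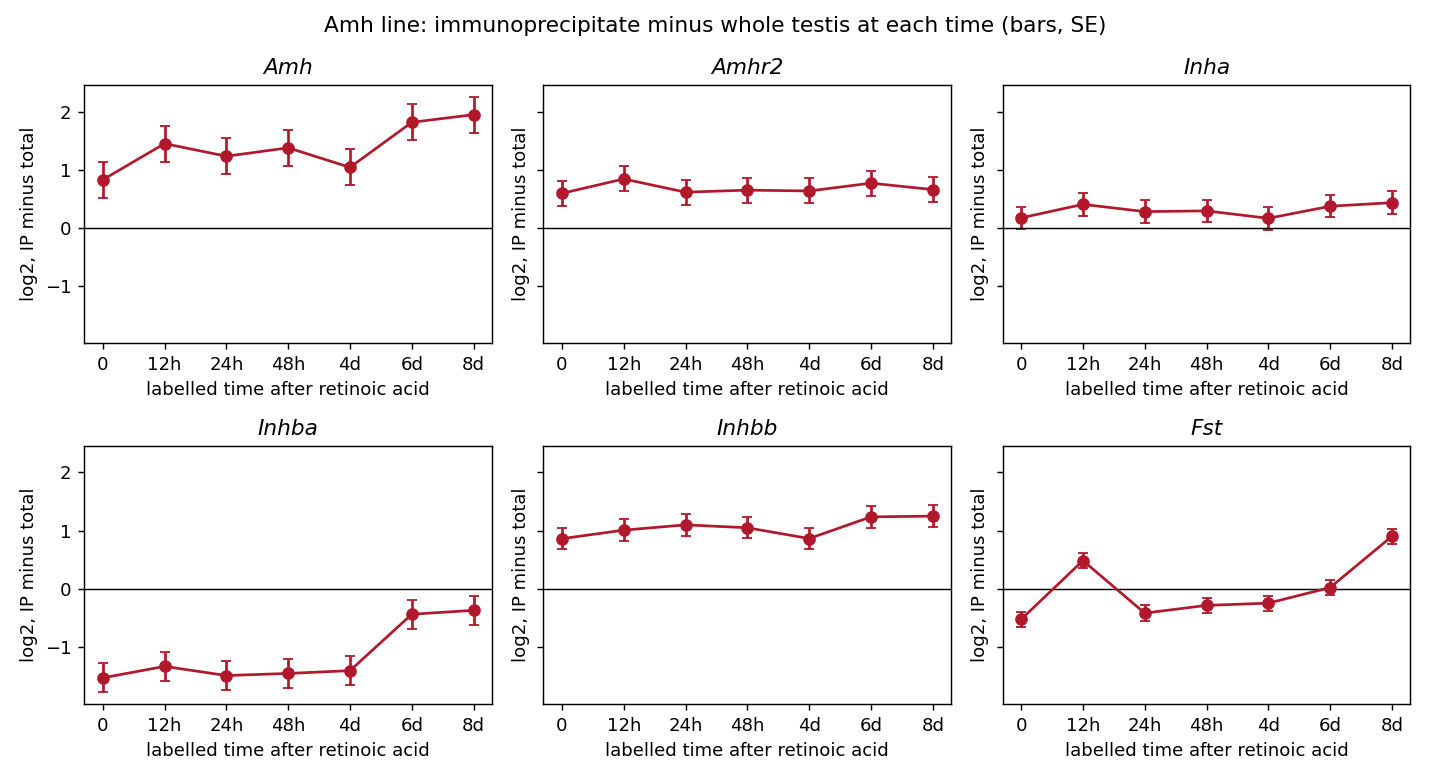
Difference in log2 intensity, IP minus total, in the Amh line at the 7 labelled times with both fractions; points are estimates of the fit and bars are SE. Amhr2, Inha and Inhbb stay above 0 throughout, Inhba climbs from -1.53 at 0 to -0.37 at 8d, and Fst stands highest at 12h (0.49) and 8d (0.90).

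Fst had a pattern of its own in Sertoli cell IP RNA. It was 440 and 479 at 0, 440 and 464 at the label 4h, 950 and 944 at 12h, 445 and 395 at 24h, 367 and 376 at 48h, 436 and 493 at the label 4d, 547 and 420 at 6d, and 833 and 1219 at 8d. The 4 arrays of 12h and 8d stood above all the others. The difference from 0 was 1.05 ± 0.13 at 12h (adjusted p = 4.51e-08, limma; 1 of 6 genes against 1.55% of all) and 1.13 ± 0.13 at 8d (adjusted p = 1.01e-09; with Amh, 2 of 6 genes against 5.63%). Both were close to the 2-fold minimum: under quantile normalization they were 0.99 and 0.97, without time 0 replicate 1 the 12h value was 0.98, and without 8d replicate 2 the 8d value was 0.86. Summed markers of some other cells were also higher in these 8d arrays. The summed intensity of 6 peritubular genes was 7120 to 8046 at 8d against 3869 to 4093 at 0 in Amh IP (1 of 6 called, Acta2). That of 6 macrophage genes was 2723 to 3088 against 1270 to 1373 (1 of 6 called, Mrc1). That of 15 germ cell genes was 7673 to 8556 against 6709 to 7601. For 7 Leydig genes the sums overlapped, at 5520 to 6445 against 5856 to 7056. For 6 endothelial genes they were lower, at 1744 to 2134 against 2758 to 2887. At 12h the peritubular and macrophage sums were 3574 to 3691 and 1205 to 1238. The part of these cells in the 8d level of Fst was not tested. None of the 6 genes was called at the other times of Amh IP (limma), where 1.94% of all genes were called at 4h, 0.537% at 24h, 1.22% at 48h, 0.943% at 4d and 3.41% at 6d. At an adjusted p under 0.05 but under 2-fold, Inhba was lower at 4h, 48h, 4d and 6d, by 0.77, 0.80, 0.83 and 0.89 on the log2 scale.

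Whole testis did not show these peaks. In Amh total Fst was 657 and 663 at 0, 651 and 702 at 12h, with its lowest arrays at 48h (448 and 456), and was 488 and 595 at 8d; late minus early was -0.32 ± 0.09 (adjusted p = 0.00187, limma). In Amh IP late minus early was 0.29 ± 0.09 (adjusted p = 0.0049), and the difference between the fractions was 0.61 ± 0.12 (adjusted p = 0.000144), under 2-fold. IP minus total was -0.52 ± 0.13 at 0, 0.49 ± 0.13 at 12h, -0.42 at 24h, 0.02 at 6d and 0.90 ± 0.13 at 8d. In germ cell IP RNA Fst went down with time: Stra8 IP arrays held 1227 and 1309 at 0, 1445 and 1283 at 4h, 801 and 724 at 12h, 1023 and 925 at 24h, 793 and 821 at 48h, 569 and 605 at 4d, 646 and 618 at 6d, and 526 and 564 at 8d. The largest difference from 0 was -1.22 ± 0.13 at 8d (adjusted p = 1.29e-13).

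The Stra8 IP course was called for 10.8% of all genes and for 4 of the 6: Amh (-2.28 ± 0.31 at 6d, adjusted p = 3.85e-10, limma), Inha (-1.17 ± 0.19 at 6d), Inhba (-1.28 ± 0.25 at 6d) and Fst. Sertoli signal moved with Amh and Inha. Amh was 1521 in time 0 replicate 2, 932 in 24h replicate 2 and 1688 in 4d replicate 1, against 699, 345 and 535 in the other array of each pair. The mean log2 intensity of the 20 Sertoli genes was 9.96, 9.99 and 10.47 in the same arrays, against 9.55, 9.29 and 9.71 in their partners, and from 8.91 to 9.15 at 6d and 8d. Amhr2 (4307) and Inha (5458) were also highest in 4d replicate 1, while Inhba was highest (742) in time 0 replicate 2 and was 310 in 4d replicate 1. Without these 3 arrays Inha (-0.77) and Inhba (-0.66) were no longer called while Amh (-1.72) and Fst (-1.17) were. Fst did not go with the Sertoli genes, with 569 in 4d replicate 1. The part of Sertoli RNA in these values was not tested.

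**Figure D5:**
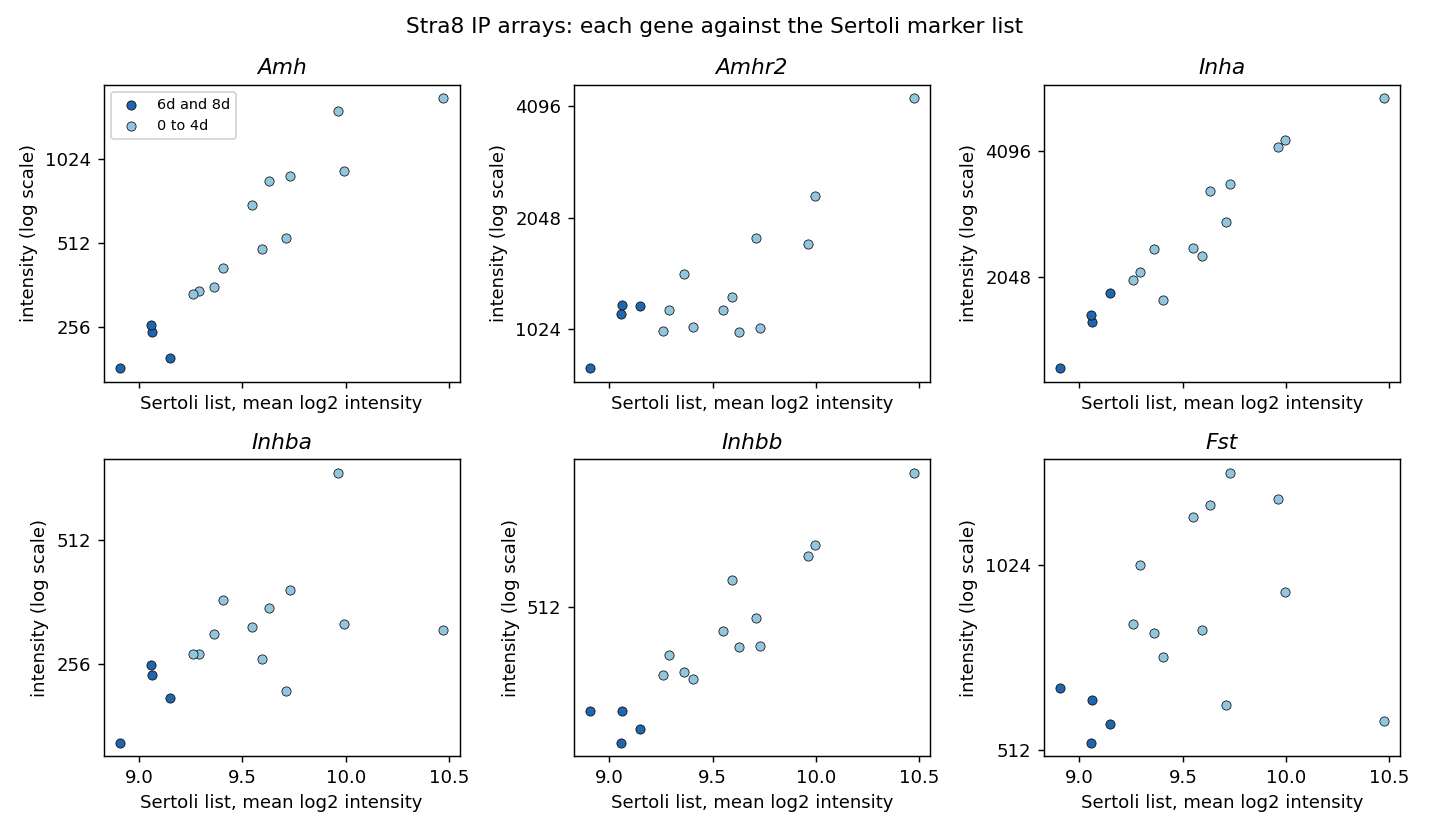
Intensity (log axis) of each of the 6 genes in the 16 Stra8 IP arrays against the mean log2 intensity of 20 Sertoli genes, with arrays at 6d and 8d in dark blue and arrays from 0 to 4d in light blue. Amh, Inha and Inhbb are highest in the arrays with the most Sertoli signal (up to 1688, 5458 and 930), while Fst in the array at 10.47 is 569.

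The Ngn3 line and Stra8 total RNA gave the 4h comparisons. In the Ngn3 line none of the 6 genes was called at 4h in IP RNA (limma; 0 of 6 at an adjusted p under 0.05, 0.311% of all genes called, 62 genes, or 52 to 123 with 1 array left out) or in total RNA (0 of 6 likewise, 0.301% called). Inhba was 1025 and 1013 at 4h against 1282 and 1610 at 0 in Ngn3 total, a difference of -0.50 ± 0.25 with a 95% interval from -1.00 to 0.01. In Stra8 total Inhba was called at 4h (-1.04 ± 0.19, adjusted p = 0.000137; 1 of 6 genes against 0.386% of all, 77 genes, or 54 to 310 with 1 array left out), with 940, 522 and 555 at 4h. The call rested on replicates 2 and 3, whose Rarb was at the level of time 0: without them the difference was -0.51 (adjusted p = 0.129), and without replicate 1 it was -1.31. It was also under 2-fold without any 1 of time 0 replicate 3 (-0.95), 4h replicate 2 (-0.89) or 4h replicate 3 (-0.93).

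Around the 6 genes, 48 genes of the same signalling family were followed: receptors, binding proteins, other ligands, convertases, Smads and feedback regulators. In the Amh IP course 2 of 48 were called higher and 11 lower, with a list median of -0.33 against 0.20 over all genes, of which 7.62% were called. Late minus early, which uses no doubted array, called 1 higher (Fstl3) and 4 lower (Bambi, Ski, Smad1 and Smad6), against 2.71% of all genes. The 2 that rose in the course were Fstl3, a secreted relative of follistatin that also binds activins, and Tgfb3. The 11 that fell were Smad1, the inhibitory Smad6 and Smad7, the decoy receptor Bambi, the Smad repressor Ski, Id3, Gdnf, the convertases Pcsk5 and Pcsk6, Htra1 and Fstl4. Ski was 1080 and 972 at 8d against 2507 and 2351 at 0 in Amh IP (-1.25 ± 0.09, adjusted p = 2.34e-16, limma), and Smad6 (-1.33 ± 0.18) and Smad1 (-1.16 ± 0.15) also fell at 8d.

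Fstl3 changed early and by more than Fst. In Amh IP it was 1302 and 1349 at 0, 1912 and 831 at the label 4h, 7069 and 6266 at 12h, 3059 and 2072 at 24h, 2586 and 2991 at 48h, 7073 and 7280 at the label 4d, 4192 and 6985 at 6d, and 5781 and 6767 at 8d. The difference from 0 was 2.33 ± 0.47 at 12h (adjusted p = 0.000353, limma), 2.44 at the label 4d, 2.03 at 6d and 2.24 at 8d. In Ngn3 total it was 5121 and 5417 at 4h against 795 and 1005 at 0 (2.56 ± 0.47, adjusted p = 0.000833). In Stra8 total at 4h it was 6440 in replicate 1 and 1105 and 671 in replicates 2 and 3. Fst stayed at 436 and 493 in the Amh IP arrays labelled 4d, in which Fstl3 was high.

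Between fractions, Tgfbr3, which encodes betaglycan, a co-receptor for TGF-beta and inhibin, with Tgfbr2, Fstl1 and Htra1, was lower in Amh IP than in Amh total (4 of 48), and Pcsk6 was higher (1 of 48), with a list median of 0.13 against 0.12 over all genes, of which 5.04% were called. In Stra8 IP against Stra8 total 0 of 48 were higher and 7 lower (9.21% of all genes were called), in Ngn3 IP against Ngn3 total 0 and 8 (12.9%), and in Amh IP against Stra8 IP 10 higher and 1 (Ski) lower (16.8%). In the other courses 1 rose and 6 fell in Amh total (7.66% of all genes were called), 2 rose and 5 fell in Stra8 total (6.9%), and 4 rose and 5 fell in Stra8 IP (10.8%), with Smad7 among those that fell in all 4 courses and Fstl3 among those that rose in both totals.

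Of 17 measured transcriptional and hormonal regulators of Amh and the inhibin genes, 12 were called higher in Amh IP than in Stra8 IP and 1 lower, against 16.8% of all genes called, among the higher ones Gata4 (2.47), Sox9 (2.49) and Nr5a1, which encodes steroidogenic factor 1. Of the higher ones Fshr, Gata1, Gata4, Nr5a1, Sox9 and Wt1 are also on the Sertoli list, chosen with earlier results known, so that count is no independent check. In the Amh IP course 1 rose and 1 fell, 2 of 17 against 7.62% of all genes, and the same 2 were called late minus early (2.71% of all). Gata1, which encodes a zinc finger factor of Sertoli cells, was 4407 and 4783 at 8d against 1764 and 1821 at 0 in Amh IP (1.36 ± 0.17, adjusted p = 1.13e-08, limma). Zfpm2, which encodes the GATA cofactor FOG2, was 450 and 395 at 8d against 1238 and 1211 at 0 (-1.54 ± 0.26, adjusted p = 6.3e-06). In the Amh total course 2 rose and 2 fell (7.66% of all genes were called), in the Stra8 total course 1 rose and 4 fell (6.9%), and Zfpm2 fell in both. The list median in the Amh IP course was -0.32 against 0.20 over all genes.

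Likeness was taken as the Pearson correlation of log2 group means over the 35 groups, which share lines and fractions, and is a description only. Nearest to Amh were Pgm2 (0.987), Epdr1 and Tpp1, to Amhr2 Gamt (0.991), Tmem184a and Reep2, to Inha Gstm7 (0.991), Capns1 and Aldh1a1, and to Inhbb Slc41a3 (0.987), Zfp275 and Sema6c. Inhba was nearest to Pcdh18 (0.944), Lhx9 and Rbms3. Fst had the weakest neighbours, Osbpl3 (0.853), Slc9a3r1 and Kdm2b. Among the 6 genes, Amhr2 with Inha (0.959) and Inhbb with Amhr2, Inha and Amh (0.935, 0.934 and 0.934) were most alike, while Inhba reached at most 0.471 (with Inha) and Fst was negative with all 5. Over the 8 Amh IP means alone, the nearest gene was Ccnd2 for Amh (0.976), Mfsd13a for Amhr2 (0.986), Msmo1 for Inha (0.89), Cenph for Inhba (0.905), Timm8a1 for Inhbb (0.937) and Runx1t1 for Fst (0.953), among genes that moved at least 2-fold there.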

How the data were processed

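Testis RNA of 3 RiboTag lines was hybridised to a gene-level Affymetrix array with 1 colour, after extraction with RNeasy columns, Ovation V2 amplification and biotin labelling, per the labels' protocols. The values the authors deposited are intensity on a linear scale, made with RMA per the submitters' processing notes. Further settings, and any build, were not given in the sources used here. RMA fits background and scale over all arrays and is known to compress differences of low signals; array minima lay between 25.1 and 26.3. Arrays have no read depth, and their number limits the precision.

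Values were log2-transformed and not rescaled. Of 28853 probe sets, 21789 were listed with 1 gene (1621 with several and 5443 unlisted were left out), and for each of 19938 genes the probe set with the highest mean was used. All 77 arrays entered 1 limma model (limma 3.58.1, R 4.3.3, data.table version 1.17.8) with a mean for each of the 35 groups and eBayes with an intensity trend. Tests were two-sided, adjusted by Benjamini-Hochberg, and called at 0.05 and 2-fold. Courses used the moderated F over differences from time 0. The model was tested on simulated data. Promoter matches were counted with python 3.11.15, figures drawn with matplotlib 3.10.9 (pandas 2.3.3, numpy 2.4.6).

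The 6 genes, the gene lists and the Amh arrays labelled 4h and 4d were chosen with earlier results of these data known. All 6 genes were followed in every comparison, with values given for those the results turn on and counts for the rest. Of the family and regulator lists, called members are named with examples. Likeness gives the 3 nearest named genes. Rhox5 of the Sertoli list, 2 Leydig genes and 1 mitosis gene were not measured under the names used. Arrays of a group correlated across genes with r of 0.958 to 0.9985, and 0 pairs were identical. Replicate numbers of the labels were checked as pairs by correlating deviations from group means. IP and total of the Amh line passed 0.1 in 7 of 7 times (0.121 to 0.572), the Stra8 line in 4 of 8. The Ngn3 line had only 2 such pairs, and both passed (0.232 and 0.248). Later times paired with time 0 passed in 0 of 7 for Amh IP and 1 of 6 for Amh total. They passed in 2 of 7 for Stra8 total and in 3 of 7 for Stra8 IP (up to 0.483). Alternatives were no fold minimum, a filter that dropped the dimmest 30% of genes (all 6 genes stayed), median centring, quantile normalization, the mean of probe sets, no intensity trend, the compared groups alone, a replicate block, arrays left out in turn and the doubted arrays left out.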

Additional observations from a re-analysis of the deposited data

Results flagged for a closer look

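A single array stood far from its group in 2 of 18 groups of 4 arrays tested (the 6 genes in 3 Stra8 total groups), and chance alone flags about 1 in 20. Amh was 4660 in Stra8 total 48h replicate 3, against 2641 to 2853 in the other 3 arrays, and the gap was 0.895 of the group's range. Amhr2 was 5480 in Stra8 total time 0 replicate 3, against 6203 to 6235 in the others, a gap of 0.958 of the range.

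A difference between IP and total RNA in the change from early to late times was tested in the Amh line. It was 1.05 for Inhba (adjusted p = 0.00061, limma) and 0.61 for Fst (adjusted p = 0.000144), on the log2 scale as IP minus total. The later Inhba values in Amh IP were near the array median, and the part of this lower signal was not tested.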

How the results depend on the processing

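No value of the 6 genes called in the reported fit turned its sign under any alternative run. Amhr2 in the Stra8 IP course did change sign, as the time of its largest difference changed: 0.98 with all arrays, -0.83 without time 0 replicate 1 and -0.54 without 4d replicate 1. The Amh line's replicate numbers paired IP with total arrays, and with a replicate block 150 of 150 values of the 6 genes kept their call; IP minus total then stayed with 3 genes called. Leaving out the 30% of genes with the lowest signal, the mean of probe sets, no intensity trend and the compared groups alone also kept all 150, and median centring changed no call. Without the 2-fold minimum the number of genes called was 5 for Amh IP minus Amh total, 1 for Amh total minus Stra8 total, 4 in each of the Amh IP, Amh total and Stra8 total courses, 3 for late minus early in Amh IP, 4 in Amh total and in Stra8 total and 6 in Stra8 IP, 1 at each of 4h, 48h, 4d and 6d in Amh IP, and 2 at 4h in Stra8 total and for the Amh line's change between fractions. Of all 19938 genes that setting called 14782 for Amh IP minus Amh total and 3583 for Amh total minus Stra8 total. In the Amh IP, Amh total and Stra8 total courses it called 10627, 10855 and 13130. Late minus early it called 7013 in Amh IP, 7484 in Amh total, 8878 in Stra8 total and 8402 in Stra8 IP. In Amh IP it called 3047, 1816, 1957 and 4600 at 4h, 48h, 4d and 6d. It called 3314 at 4h in Stra8 total and 3795 for the change between fractions. Under quantile normalization 1 gene was called in the Amh IP course, 0 at 12h and 1 at 8d, and Inhbb passed in the Stra8 IP course (-1.02). Chosen after seeing the data, a fit without 3 Stra8 IP arrays with more Sertoli signal called 2 genes in the Stra8 IP course, a fit without 2 Stra8 total arrays labelled 4h with Rarb as at 0 called 0 at 4h, and a fit without 2 other Stra8 total arrays changed no call. Dropping the arrays of the Amh line labelled 4h or 4d changed no call; Amh total minus Stra8 total for Amh was then -0.11. With each array left out in turn, 2022 of 2046 values kept their call and direction; the number called ran from 0 to 1 at 12h and from 1 to 2 at 8d in Amh IP, from 0 to 1 at 4h in Stra8 total and from 0 to 1 for the Amh line's change between fractions. In the Stra8 IP course Inha was -0.77 and Inhba -0.66 without time 0 replicate 2, Inha was -0.99 without 6d replicate 1, Amhr2 passed at 1.27 without time 0 replicate 2 and at 1.61 without 4d replicate 2, and Inhbb at -1.16 without time 0 replicate 1. Over all genes the number called moved by more than 1.5 times in 25 of 25 comparisons without the fold minimum and in 7 of 341 fits with an array left out. It did so in 1 of 25 under each of the 30% filter, quantile normalization and the compared groups alone. The same held without the 2 Stra8 total arrays labelled 4h and without the 2 other Stra8 total arrays, at 1 of 25 each. The causes were not tested. Most groups have 2 arrays, which sets the precision.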

Other observations

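Genes of dividing cells moved differently in the fractions that the hormone genes were read from. The mean log2 intensity of 9 mitosis genes in Amh IP was 10.97 at 0, 10.13 at 12h, 9.67 at 24h, 8.91 at 48h, 9.81 at 6d and 9.68 at 8d, with 9.05 at the label 4h and 10.61 at the label 4d. In Amh total it was 11.31 at 8d against 10.91 at 0, and in Stra8 IP 11.96 at 8d against 11.62 at 0.

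Gdnf, a Sertoli cell growth factor for spermatogonial stem cells, was 431 and 289 at 8d against 736 and 764 at 0 in Amh IP (-1.09 ± 0.22, adjusted p = 7.74e-05, limma). In Amh total it was 318 and 253 at 8d against 682 and 666 at 0.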
